A study of Mus musculus with 5 samples.

Results

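Blood leukocytes (PB) were compared with bone marrow (BM) in the mouse, with 1 RNA sequencing library on each side, 2 of the 5 libraries of the series. The PB library is labelled as plasma blood cells of wild-type genotype, and the design text adds that the blood cells were CD45+, CD45 being the leukocyte surface phosphatase encoded by Ptprc. The BM library is labelled as bone marrow, also wild type, with no sort named. Both started from total RNA taken up in Trizol, from which polyA RNA was purified. The sources used here give no strain, sex, age, treatment or number of animals for either library. The series concerns turning fibroblasts directly into macrophages, and its other 3 libraries are induced pluripotent stem cells (iPSC), embryonic fibroblasts (MEF) and a myeloid-like cell complex (MCC), used below only to show on which side of the pair a level stands apart.

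Genes were chosen by size. Of 34970 genes in the table, 11377 had at least 5 CPM (a gene's reads scaled to the size of its library) in PB or BM. A gene was called where its ratio reached 4-fold after any count below 3 was raised to 3. There were 719 genes at least 4-fold higher in PB (6.32% of the 11377) and 1101 at least 4-fold lower in PB (9.68%), and 9557 (84.0%) were called in neither direction. The median log2 ratio, PB over BM, was -0.18 over all 11377 genes. Scaling by DESeq2 size factors moved that median up by 0.20 and the calls to 885 higher and 981 lower, so that 47.4% of calls were on the higher side, against 39.5% with the scaling used here. Of the genes named below, Lyl1, Sox4, Cd24a, Hmox1 and Pcna then lost their call and Pax5, Cxcr4, Ier5 and Cd27 gained one. The PB library held 30078366 counts and the BM library 40774101. With 1 library on each side there are no replicates, and p-values cannot be had. The 95% counting interval after the fold of a gene is exact for the reads counted, and that of a precursor to mature ratio is approximate. Each covers counting error only, not the variation among animals. Folds are given from the reads as counted, also at 1 or 2 reads where the interval is wide, and with 3 counts in place of 0 reads. For 262 of the 1820 called genes that interval included 4-fold, 179 called genes lay within 10% of the threshold, and 202 genes fell short of it by no more than 10%. A gene at 5 CPM on 1 side only is by construction higher there, so the counts below are descriptions. In such mixed cells, fewer cells of a type and less RNA per cell cannot be told apart. The library codes of the other 4 lie close together and that of PB stands apart, so what the code stands for and the blood cells cannot be told apart.

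Blood cells are made in the marrow, where stem cells give rise to dividing precursors of each lineage, and mature cells leave for the circulation. Developing neutrophils fill their granules in sequence, primary granule proteins being made in promyelocytes and secondary and tertiary granule proteins in later stages. Red cell precursors divide, fill with haemoglobin and expel the nucleus, and the young red cells that enter the blood still hold globin mRNA. B cells assemble their receptors in the marrow with the RAG recombinase, while T cells do so in the thymus.

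The scatter of gene levels shows how the stage lists lie around the line of equal level.

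**Figure D1:**
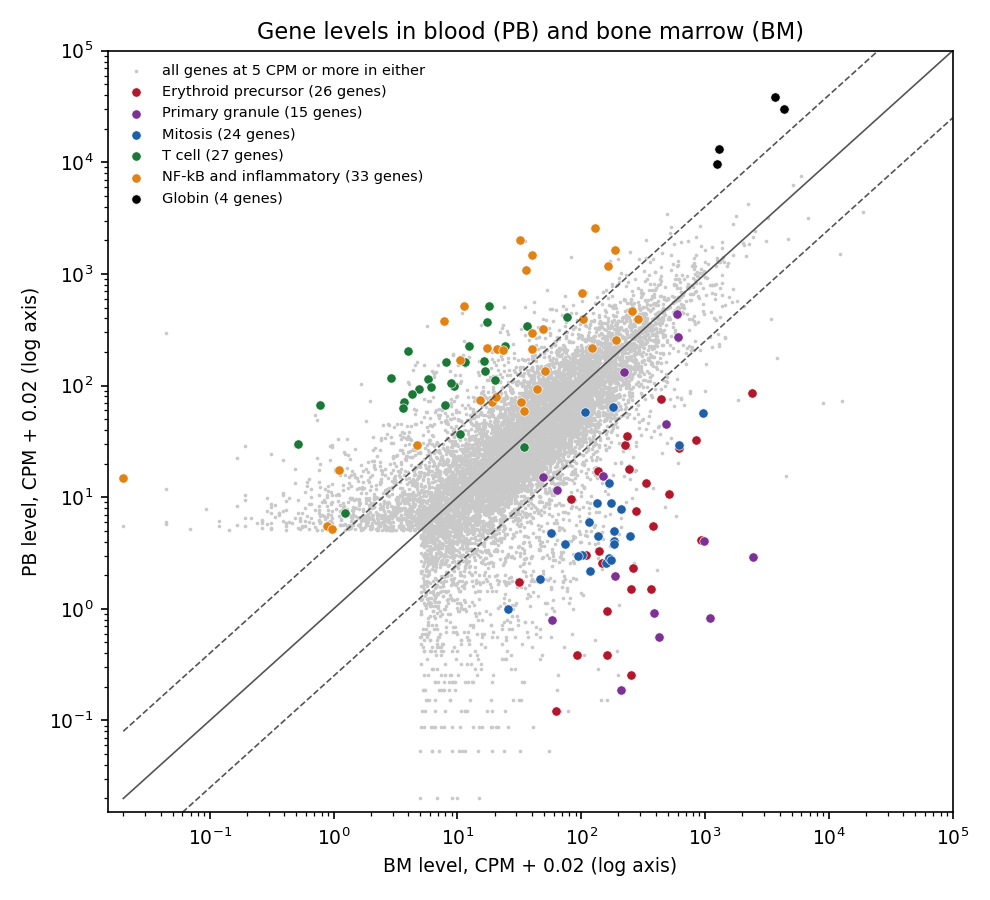
Level of each of the 11377 genes in PB (vertical axis) and BM (horizontal axis), as CPM + 0.02 on log axes, 1 library each. The solid line marks equal levels and the dashed lines a 4-fold difference. Coloured points are members of 6 lists at 5 CPM or more: all 26 erythroid precursor genes lie below the lower dashed line, and all 4 globin genes and 25 of 27 T cell genes above the upper one.

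The label of PB was checked against genes used by leukocytes in general. Ptprc had 2327 CPM in PB and 525 CPM in BM, 4.44-fold higher in PB (4.37 to 4.50). Among the 18 leukocyte genes, 2 passed 4-fold on the PB side, Ptprc and the adhesion regulator gene Cytip, which was named after its values were seen, and 0 were lower. The same fold was passed by 6.32% of all genes in the direction of PB and by 9.68% in that of BM. The list's median log2 ratio was -0.23, next to -0.18 for all genes, and its mean was 0.13. Coro1a, an actin regulator of leukocytes, had 1446 CPM in PB and 2146 CPM in BM, and Lcp1, the leukocyte plastin, 1486 CPM in PB and 1668 CPM in BM. Haemoglobin transcripts made up 9.04% of the counts in PB (95% binomial interval 9.03 to 9.05) and 1.06% in BM (1.05 to 1.06), and red cells are known to carry no CD45. Mitochondrial genes made up 1.33% in PB and 0.940% in BM, and ribosomal protein genes 5.65% in PB and 5.48% in BM.

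Genes of blood stem and progenitor cells were mostly lower in PB. Of 24 list members in the table, 18 reached 5 CPM in either library, 17 of them in BM and 11 in PB. Of the 18, 10 were at least 4-fold lower in PB and 1 higher, where 9.68% of all genes were lower and 6.32% higher, and the median log2 ratio was -2.11. Erg, a transcription factor of stem cells, had 0.368 CPM in PB and 48.4 CPM in BM (132-fold lower, 73.3 to 264). Cd34, a surface protein by which progenitors are sorted, had 0.603 CPM in PB and 36.6 CPM in BM (60.7-fold lower, 38.3 to 103). Kit, the receptor for stem cell factor, had 4.05 CPM in PB and 83.0 CPM in BM (20.5-fold lower, 17.1 to 24.8). These surface and regulatory genes of early progenitors were thus each under 5 CPM in PB. The transcription factors Tal1 and Gfi1b, which early progenitors share with red cell and platelet precursors, were 43.7-fold lower (PB 4.25 CPM, BM 186 CPM) and 34.6-fold lower (PB 1.74 CPM, BM 60.2 CPM). Adgrg1, an adhesion receptor, was 16.1-fold lower, Egfl7, a secreted vascular factor, 26.3-fold, Gata2 5.2-fold, Sox4 4.46-fold and Lyl1 4.15-fold, the last 3 being transcription factors. In Sox4, 54.6% of the exon bases overlap a gene on the opposite strand, and the sources used here do not state how the counting treated strand.

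The remaining members were higher, closer together or too low to call. Slamf1, a receptor that stem cells share with activated lymphocytes, was the member that was higher, with 13.1 CPM in PB and 2.33 CPM in BM (5.6-fold, 4.46 to 7.08). Ly6a, which encodes Sca-1 and is also made by T cells, had 56.3 CPM in PB and 22 CPM in BM. Myb, Lmo2, Flt3, Cd93 and Angpt1 were within 4-fold, Myb with 39.7 CPM in PB and 153 CPM in BM. Hoxa9, Hoxa7, Hlf, Meis1, Mecom and Procr stayed under 5 CPM in both libraries. Hoxa9, a homeobox gene of progenitors, had 1 read in PB and 150 in BM (110.0-fold lower, 19.4 to 4373).

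Neutrophil genes were ordered by stage, with the primary granule genes furthest apart. All 15 primary granule genes reached 5 CPM in BM and 7 did so in PB. 11 of them were at least 4-fold lower in PB, 0 were higher, and the median log2 ratio was -6.25. Elane, which encodes neutrophil elastase, had 24 reads in PB and 44924 in BM, or 0.803 CPM in PB and 1103 CPM in BM (1373-fold lower, 922 to 2142). Mpo, which encodes myeloperoxidase, had 2.91 CPM in PB and 2422 CPM in BM (832-fold lower, 674 to 1038), with 15% of its exon bases under a gene on the opposite strand. Ctsg, which encodes cathepsin G, had 0.536 CPM in PB and 426 CPM in BM (796-fold lower, 489.8 to 1392). The protease genes of the primary granule were thus each under 5 CPM in PB and far above it in BM. Prtn3, the gene of proteinase 3, was 242-fold lower (PB 4.05 CPM, BM 981 CPM), Ms4a3, a membrane protein of granulocyte and monocyte progenitors, 1264-fold (541 to 3893), and Fcnb, the gene of ficolin B, 430.3-fold (296 to 653). Cebpe, the transcription factor of the promyelocyte to myelocyte step, was 96.0-fold lower (PB 1.94 CPM, BM 186 CPM), and Gfi1, a repressor needed for granulocyte formation, 5.56-fold. Prss57, Serpinb1a and Gstm1 were 76.0-fold, 10.7-fold and 9.58-fold lower, with 40.7% of the exon bases of Prss57 under a gene on the opposite strand. The 4 members within 4-fold, Plac8, Igfbp4, Calr and Cst7, are not limited to granulocytes, Calr encoding a chaperone of every cell: Plac8 had 437 CPM in PB and 594 CPM in BM.

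Secondary and tertiary granule genes were also lower in PB, over a wide range. Of 18 genes, 13 were at least 4-fold lower, 0 were higher and the median log2 ratio was -3.16. Camp, which encodes the antimicrobial peptide cathelicidin, had 15.4 CPM in PB and 4533 CPM in BM (295-fold lower, 269 to 324). Ngp, a neutrophil granule protein, had 72.4 CPM in PB and 12728 CPM in BM (176-fold lower, 169 to 184). Ltf, which encodes lactoferrin, had 69.2 CPM in PB and 8927 CPM in BM (129-fold lower, 124 to 135). Other members lay within 4-fold. Lyz2, the gene of lysozyme, had 3202 CPM in PB and 6849 CPM in BM. Hp, the gene of haptoglobin, had 622 CPM in PB and 1554 CPM in BM. Cybb, a subunit of the phagocyte oxidase, had 595 CPM in PB and 1195 CPM in BM. Mmp9, the gelatinase of tertiary granules, lay at the threshold, at 517 CPM in PB and 2069 CPM in BM; named after its values were seen, it was called lower when libraries were scaled by total counts.

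The genes of mature neutrophils were split. Of 25 at 5 CPM, 3 were higher by 4-fold or more, 3 were at least 4-fold lower and 19 were in between. Over all genes, 6.32% were higher and 9.68% lower. The list's median log2 ratio was 0.51. Il1b, the cytokine interleukin 1 beta, had 2573 CPM in PB and 129 CPM in BM (19.9-fold higher, 19.3 to 20.4). Csf3r, by which neutrophils sense granulocyte colony-stimulating factor, had 1985 CPM in PB and 735 CPM in BM (2.70-fold higher, 2.66 to 2.74). S100a8 and S100a9, which encode calprotectin and are made from the myelocyte stage on, were lower: S100a8 had 1516 CPM in PB and 12249.6 CPM in BM (8.08-fold, 8.0 to 8.16), and S100a9 3583 CPM in PB and 19058 CPM in BM (5.32-fold, 5.29 to 5.35). Besides Il1b, the genes past 4-fold on the higher side were Hcar2, a receptor for hydroxy acids, and Clec4e, a pattern receptor, and besides S100a8 and S100a9 the lower gene was Wfdc21, these 3 being named after their values were seen. Summed over members, primary granule reads stood to mature neutrophil reads as 0.0568 in PB and 0.207 in BM, 3.64-fold lower in PB (3.59 to 3.69), and secondary and tertiary granule reads as 0.383 in PB and 1.32 in BM, 3.46-fold lower (3.44 to 3.48). No scaling enters these ratios. They weigh abundant genes, in BM S100a9 and S100a8 above all. In PB, Plac8, which is not limited to granulocytes, gave 437 of the 942 CPM of the primary granule list. The first ratio therefore also counts RNA that need not come from precursors. On the log2 scale the ratios were -1.86 for the primary granule list and -1.79 for the secondary and tertiary list. Without the most abundant member of each list they were -1.98 and -2.03. S100a8 stayed in when S100a9 was left out, so this cannot show how far the ratios rest on that pair. The difference of the list medians was -6.75 for the primary granule list and -3.66 for the secondary and tertiary list.

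**Figure D2:**
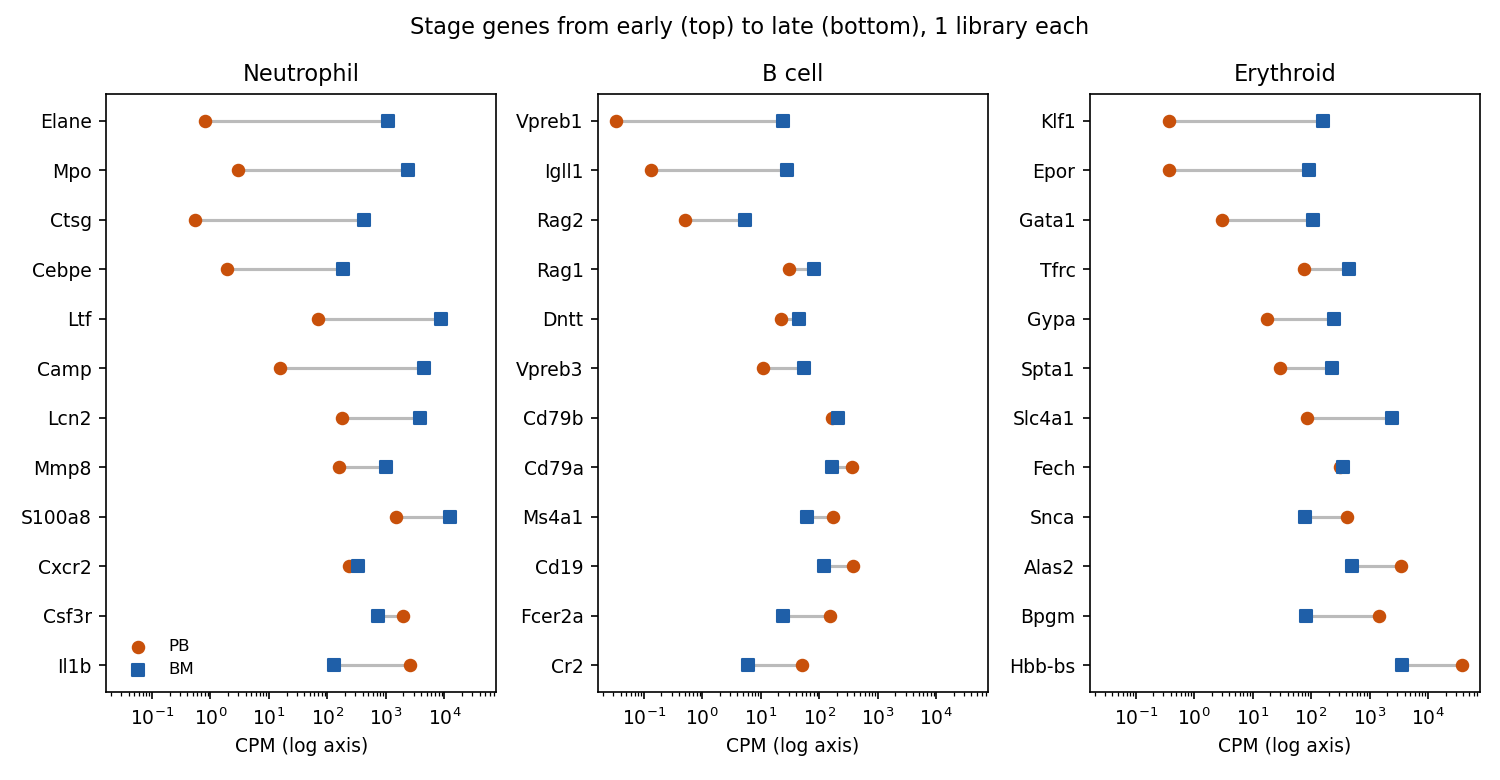
CPM in PB (circles) and BM (squares) on a log axis for 12 genes of the neutrophil, B cell and erythroid lineages, ordered from early stages at the top to late ones at the bottom, 1 library each. The distance between the symbols is widest for early genes such as Elane (0.803 in PB, 1103 in BM), Vpreb1 and Klf1, and PB lies to the right of BM for late genes such as Il1b, Cr2 and Hbb-bs.

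The plot by stage orders 12 genes of each lineage, chosen for their known stage with the results in view. The left to right order of PB and BM in the plot follows from that choice. The full lists of late stages were less even, with 3 higher and 3 lower mature neutrophil genes, and 3 higher and 5 lower genes of reticulocytes and haem synthesis.

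Monocyte genes did not repeat the granule pattern. Of 20 at 5 CPM, 5 were higher by 4-fold or more in PB (6.32% over all genes) and 0 were lower (9.68%). The median log2 ratio was 0.94. Cd14, the co-receptor for bacterial lipopolysaccharide, had 505 CPM in PB and 23.9 CPM in BM (21.1-fold higher, 19.8 to 22.6). Csf1r, the receptor for macrophage colony-stimulating factor, had 550.5 CPM in PB and 246 CPM in BM (2.24-fold higher, 2.18 to 2.30). Besides Cd14, the members past 4-fold were Ace, Adgre4, Pou2f2 and Cd300e, named after their values were seen; Ace and Adgre4 are known from the non-classical monocytes that patrol vessels, and Ace had 322 CPM in PB and 32.7 CPM in BM. Members named for their level in BM were called in neither direction: Ly6c2, of the classical monocyte, had 208 CPM in PB and 822 CPM in BM (3.96-fold lower, 3.85 to 4.07), and F13a1, the gene of coagulation factor XIII, 162 CPM in PB and 408 CPM in BM.

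Markers of cells that stay in the marrow were low in PB. Of 16 resident macrophage genes at 5 CPM, 11 were at least 4-fold lower, 0 were higher and the median log2 ratio was -3.64; the summed level of the list's 18 genes was 448 CPM in PB and 1324 CPM in BM. Vcam1, an adhesion molecule of marrow macrophages and stroma, had 4 reads in PB and 6601 in BM (1210.1-fold lower, 472 to 4443). Hmox1, the haem-degrading enzyme, had 42.0 CPM in PB and 180.2 CPM in BM (4.29-fold lower, 4.04 to 4.56), while Adgre1, which encodes F4/80 and is also made by monocytes, had 111 CPM in PB and 52.2 CPM in BM. Of 16 marrow stroma, bone and vessel genes at 5 CPM, 14 were at least 4-fold lower, 0 were higher and the median log2 ratio was -4.61. With no CPM minimum the lower genes were 23 and the median -3.39, and with a minimum of 20 CPM the lower genes were 5. The summed level of that list's 27 genes was 190.5 CPM in PB and 617 CPM in BM, and 5 of the 27 had 0 reads in PB: Kitl, Emcn, Bglap2, Lum and Tek. Acp5, with 102 CPM in PB and 95.6 CPM in BM, and Runx2, with 75.3 CPM in PB and 60.5 CPM in BM, made up most of the PB sum and were the 2 members at 5 CPM in PB. Cxcl12, the chemokine that holds leukocytes in the marrow, had 7 reads in PB and 8043 in BM (843-fold lower, 409 to 2096). Kitl, which encodes stem cell factor, had 0 reads in PB and 189 in BM, at least 46.2-fold lower in PB, and was named after its values were seen. Folr2, a folate receptor of macrophages named for its 0 reads in PB, had 9 reads in BM, and 63.1% of its exon bases lie under a gene on the opposite strand. By the summed levels BM thus held more marker RNA of macrophages and stroma than PB, and its part in the other differences was not tested.

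Red cell genes differed by stage. All 26 erythroid precursor genes were at least 4-fold lower in PB, and their log2 ratios had a median of -5.32 and ran from -10.09 to -2.56. 26 of them reached 5 CPM in BM and 13 in PB. Car1, which encodes carbonic anhydrase 1, had 7 reads in PB and 10369 in BM (1086-fold lower, 527 to 2702). Klf1, the transcription factor that switches on globin genes, had 0.368 CPM in PB and 161 CPM in BM (437-fold lower, 244 to 876). Slc4a1, which encodes the anion exchanger band 3, had 86.1 CPM in PB and 2385 CPM in BM (27.7-fold lower, 26.6 to 28.8). Regulators and membrane genes of the nucleated precursor were thus lower alike. Tfrc, the transferrin receptor through which red cell precursors and other dividing cells take up iron, differed least, with 75.4 CPM in PB and 445 CPM in BM (5.90-fold lower, 5.64 to 6.16). Other genes of this kind stood among the lower genes with the largest counting bounds: Dmtn, which encodes the membrane skeleton protein dematin (482-fold lower, 276 to 933), and Pklr, the pyruvate kinase of red cells and liver (671-fold lower, 229 to 3257; 22% of its exon bases lie under a gene on the opposite strand).

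The promoter of the erythropoietin receptor gene, Epor, is shown for the GATA letters AGATAA, which erythroid GATA factors are known to read; Epor had 0.368 CPM in PB and 91.7 CPM in BM (249-fold lower, 139 to 499), the largest ratio among list members that hold the letters. The promoter sequences are from RefSeq on GRCm38.p6, run from 250 bases before the gene's start to 50 after it, and are written 5′ to 3′ on the gene's strand. Capitals mark the match, here on the reverse strand, 54 bases before the start, at chr9:21963527-21963826 on the minus strand.
Epor: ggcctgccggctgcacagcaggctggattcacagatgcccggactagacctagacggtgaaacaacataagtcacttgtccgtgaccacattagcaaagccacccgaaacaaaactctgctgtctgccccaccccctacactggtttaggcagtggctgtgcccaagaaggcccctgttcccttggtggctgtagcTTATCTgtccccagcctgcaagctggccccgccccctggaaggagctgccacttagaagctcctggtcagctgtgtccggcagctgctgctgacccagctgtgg
Searched on both strands, AGATAA was in 7 of 19 erythroid precursor promoters (36.8%), in 6.38% of 8693 promoters of genes at 5 CPM and in 11.4% of all 27025 promoters. Among called genes it was in 9.61% of promoters of those higher in PB and in 7.56% of those lower. A match is a run of letters and not a binding site.

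Globin genes went the other way. Hbb-bs and Hbb-bt, the adult beta globin genes, had 38197 CPM and 9656 CPM in PB, against 3654 CPM and 1256 CPM in BM, 10.5-fold and 7.69-fold higher in PB. Hba-a1 and Hba-a2, the alpha globin genes, had 30103 CPM and 13099 CPM in PB, against 4373 CPM and 1289 CPM in BM, 6.88-fold and 10.2-fold higher. The pairs are near-identical copies, 67.5% of the 50-base windows of Hba-a1 also occurring in Hba-a2 and 65.8% of those of Hbb-bs in Hbb-bt, so the split within a pair is uncertain. The embryonic genes Hbb-bh1, Hbb-y and Hba-x had at most 7 reads in either library. Alas2, which starts haem synthesis in red cells, had 3425 CPM in PB and 496 CPM in BM (6.91-fold higher, 6.80 to 7.01), and Bpgm, which makes 2,3-bisphosphoglycerate, 1433 CPM in PB and 83.2 CPM in BM (17.2-fold higher, 16.6 to 17.8). Of the 25 reticulocyte and haem synthesis genes, 3 were at least 4-fold higher (6.32% over all genes) and 5 were lower (9.68%). The list's median log2 ratio was -0.49. Slc25a37, the mitochondrial iron importer, had 216 CPM in PB and 712 CPM in BM, within 4-fold. Erythroid precursor reads stood to the reads of that list as 0.0373 in PB and 1.38 in BM, 36.8-fold lower in PB (36.1 to 37.6).

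Platelet genes were higher or close to equal. Of 19 at 5 CPM, 5 were higher by 4-fold or more in PB (6.32% over all genes) and 0 were lower (9.68%). The median log2 ratio was 0.72. Thbs1, which encodes thrombospondin 1 and is also on the list of inflammatory genes, had 1179 CPM in PB and 165 CPM in BM (7.13-fold higher, 6.94 to 7.31), and Itgb3, the platelet integrin beta 3, 100.3 CPM in PB and 91.6 CPM in BM. The summed level of the list's 22 genes was 1819 CPM in PB, 1179 of it from Thbs1, and 605 CPM in BM.

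Most genes of mast cells, basophils and eosinophils were lower in PB. Of 16 at 5 CPM, 9 were at least 4-fold lower (9.68% over all genes) and 2 were higher (6.32%). The median log2 ratio was -2.36. That median was -1.66 with no CPM minimum and -5.01 with a minimum of 20 CPM. Prss34, a basophil protease, had 2.21 CPM in PB and 409 CPM in BM (185-fold lower, 145 to 239), and Prg2, the major basic protein of eosinophils, 2.54 CPM in PB and 266 CPM in BM (104-fold lower, 83.3 to 133). The 2 that were higher were Il5ra, the receptor for the eosinophil growth factor interleukin 5, with 17.8 CPM in PB and 2.14 CPM in BM (8.32-fold, 6.62 to 10.6), and the lipoxygenase gene Alox15 with 48.1 CPM in PB and 7.86 CPM in BM. Hdc, which makes histamine, had 587 CPM in PB and 329 CPM in BM.

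B lineage genes separated by stage. Of 17 early B precursor genes at 5 CPM, 10 were at least 4-fold lower in PB, 2 were higher and the median log2 ratio was -2.16. Vpreb1 and Igll1 encode the surrogate light chain of the pre-B cell receptor. Vpreb1 had 1 read in PB and 961 in BM (705-fold lower, 126 to 27862), and shares 32.5% of its 50-base windows with Vpreb2, which had 1 read in PB and 127 in BM. Igll1 had 4 reads in PB and 1142 in BM (209-fold lower, 81.5 to 769.7). The recombinase genes differed from each other: Rag2 had 0.502 CPM in PB and 5.35 CPM in BM (10.7-fold lower, 6.32 to 19.4), and Rag1 30.3 CPM in PB and 80.2 CPM in BM (2.65-fold lower, 2.46 to 2.85). Dntt, which adds bases at the joins, was 2.05-fold lower. Vpreb3, Cplx2, Myl4 and Cd24a were 4.89-fold, 5.33-fold, 9.34-fold and 4.39-fold lower, and Akap12 2.11-fold. Sox4, Erg and Bub1b are on this list and on others and were lower, at 4.46-fold, 132-fold and 19.5-fold. The 2 higher members, Lef1 and Il7r, are T cell genes as well. The transcription factor Ebf1 and the adaptor Blnk, which B cells keep, were 2.46-fold and 1.57-fold higher.

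Of 22 mature B cell genes, 6 were at least 4-fold higher in PB (6.32% over all genes) and 0 were lower (9.68%). The median log2 ratio was 1.54. Btla, an inhibitory receptor that T cells also carry, had 453 CPM in PB and 41.2 CPM in BM (11.0-fold higher, 10.4 to 11.6). H2-Ob, a modulator of class II peptide loading in B cells, had 471 CPM in PB and 62.1 CPM in BM (7.59-fold higher, 7.27 to 7.92). Pax5, which holds B cell identity, had 449 CPM in PB and 125 CPM in BM (3.58-fold higher, 3.47 to 3.70), short of the threshold. The receptor components that precursors share were nearer to equal: Cd79a had 364 CPM in PB and 163 CPM in BM, and Cd79b 162 CPM in PB and 208 CPM in BM. Early B precursor reads stood to mature B cell reads as 0.256 in PB and 1.40 in BM, 5.47-fold lower in PB (5.38 to 5.56), or -2.45 on the log2 scale; without the most abundant member of each list it was -1.48, and by the difference of list medians -3.70.

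The immunoglobulin constant regions differed between naive and switched transcripts. Ighd, the heavy chain of naive B cells, had 448 CPM in PB and 90.1 CPM in BM (4.98-fold higher, 4.80 to 5.16), and Ighm 1657 CPM in PB and 1006 CPM in BM (1.65-fold higher, 1.63 to 1.67). The switched genes were lower. Ighg2b had 20.1 CPM in PB and 607 CPM in BM (30.2-fold lower, 27.9 to 32.9), Ighg1 9.04 CPM in PB and 229.9 CPM in BM (25.4-fold), and Ighg2c 10.7 CPM in PB and 165 CPM in BM (15.4-fold). Igha, the heavy chain of mucosal antibody, was 3.19-fold lower and Ighg3 3.80-fold. The kappa chain gene Igkc had 663 CPM in PB and 1198 CPM in BM, and of the lambda chain genes Iglc1 was 1.55-fold lower while Iglc2 and Iglc3 were 2.09-fold and 2.29-fold higher. Of 9 plasma cell genes at 5 CPM, 1 was higher (6.32% over all genes) and 0 were lower (9.68%), and the median log2 ratio was -0.74. Jchain, which joins antibody units, had 63.7 CPM in PB and 253 CPM in BM (3.97-fold lower, 3.78 to 4.17). The member that was higher was Prdm1, a repressor that drives plasma cell formation and that activated T and myeloid cells also make, with 37.0 CPM in PB and 2.70 CPM in BM, named after its values were seen.

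T cell genes were higher in PB nearly throughout. Of 27 at 5 CPM, 25 were higher by 4-fold or more, 0 were lower and the median log2 ratio was 4.0; all 27 reached 5 CPM in PB and 18 in BM. Themis, a signalling protein of the T cell receptor pathway, had 66.6 CPM in PB and 0.761 CPM in BM (87.5-fold higher, 61.5 to 129). Cd28, the co-stimulatory receptor, had 203 CPM in PB and 4.0 CPM in BM (50.7-fold higher, 43.4 to 59.6). Tcf7, the transcription factor of naive T cells, had 513 CPM in PB and 17.8 CPM in BM (28.7-fold higher, 26.7 to 31.0). The receptor itself followed: Trac, the alpha constant region, had 132 CPM in PB and 6.28 CPM in BM (21.1-fold higher), and T cell receptor genes together made up 0.0715% of the counts in PB and 0.00399% in BM. Among genes named after their values were seen, Cd3e was 19.4-fold, Cd8a 19.8-fold and Cd4 5.63-fold higher. Satb1, a chromatin organiser that progenitors also use, was 5.40-fold higher, with 414 CPM in PB and 76.7 CPM in BM. Only Cd27 and Ubash3a of the 27 were within 4-fold. Ctla4 and Trat1, both of T cells, were among the 15 higher genes with the largest counting bounds, Ctla4 with 49.1 CPM in PB and 0.712 CPM in BM (68.9-fold, 47.8 to 103).

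Cytotoxic and other lymphocyte genes were higher too. Of 20 natural killer and cytotoxic genes at 5 CPM, 16 were higher by 4-fold or more, 0 were lower and the median log2 ratio was 2.69. Gzma, the gene of granzyme A, had 133 CPM in PB and 14.6 CPM in BM (9.09-fold higher, 8.33 to 9.92). Il2rb, a receptor chain for interleukins 2 and 15, had 297 CPM in PB and 55.9 CPM in BM (5.32-fold higher, 5.08 to 5.58). Nkg7, a cytotoxic granule protein, had 89.9 CPM in PB and 83.7 CPM in BM, close to equal. Of the 8 Gimap genes, GTPases that keep lymphocytes alive, 5 were at least 4-fold higher and 0 lower, and the median log2 ratio was 3.01. Gimap6 had 714 CPM in PB and 52.8 CPM in BM (13.5-fold higher, 12.9 to 14.1). Of 18 dendritic cell and class II genes, 7 were at least 4-fold higher (6.32% over all genes) and 3 were lower (9.68%). The median log2 ratio of these genes was 1.40. Their mean was 0.52, and with a minimum of 20 CPM the lower genes came to 1. The antigen presentation genes Cd74 and H2-Aa were 4.95-fold and 4.81-fold higher, Cd74 with 2648 CPM in PB and 535 CPM in BM. The 3 that were lower, named after their values were seen, were the plasmacytoid dendritic cell genes Siglech (13.5-fold) and Cox6a2 (18.2-fold) and the classical dendritic cell factor Zbtb46 (PB 0.670 CPM, BM 13.4 CPM).

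The plot of gene lists sets the 31 lists side by side.

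**Figure D3:**
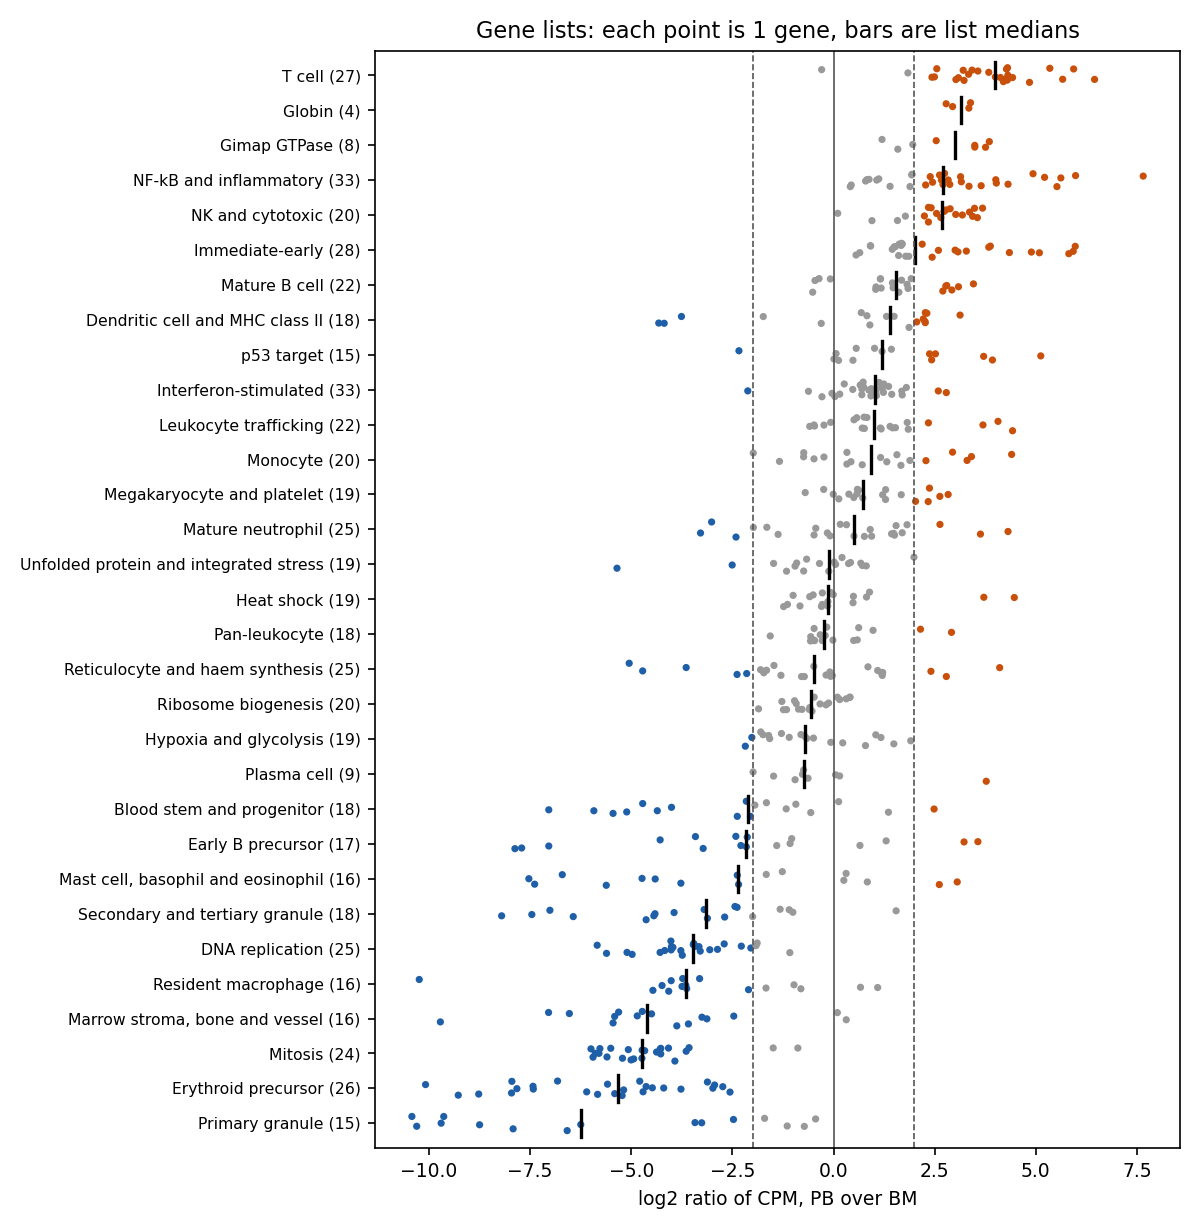
Log2 ratio of CPM, PB over BM, for each list member at 5 CPM or more in either library (points) and the list median (black bars), with the number of genes after each name and the lists ordered by median. Dashed lines mark 4-fold, and orange and blue points lie past it on the higher and lower side. Medians run from 4.0 for T cell genes to -6.25 for primary granule genes, against -0.18 over all genes.

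In that plot the lists of mature lymphocytes, globins and activation genes lie at the top, and those of precursors, dividing cells and marrow-bound cells at the bottom. Of 675 list entries, 652 were distinct genes, 642 of these were in the table, and 23 genes are on more than 1 list.

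Cell division genes were lower in PB. Of 24 mitosis genes, 22 were at least 4-fold lower, 0 were higher and the median log2 ratio was -4.73. Mki67, the proliferation marker Ki-67, had 57.1 CPM in PB and 966 CPM in BM (16.9-fold lower, 16.1 to 17.8). Top2a, the topoisomerase that untangles chromosomes, had 29.6 CPM in PB and 614 CPM in BM (20.8-fold lower, 19.4 to 22.2). Ccna2, which encodes cyclin A2, had 4.45 CPM in PB and 248 CPM in BM (55.7-fold lower, 46.9 to 66.6). The members within 4-fold were Kif23, a motor of cytokinesis, with 58.0 CPM in PB and 107 CPM in BM, and Cenpa, the centromeric histone, with 64.6 CPM in PB and 182 CPM in BM. Of 25 DNA replication genes, 22 were at least 4-fold lower, 0 were higher and the median log2 ratio was -3.47. Rrm2, the regulated subunit of ribonucleotide reductase, had 8.24 CPM in PB and 473 CPM in BM (57.4-fold lower, 50.6 to 65.4). Mcm5, a subunit of the replicative helicase, had 30.5 CPM in PB and 491 CPM in BM (16.1-fold lower, 15.1 to 17.2). Pcna, the sliding clamp, which also serves DNA repair, had 111 CPM in PB and 459 CPM in BM (4.12-fold lower, 3.98 to 4.28), and Cdt1, a licensing factor, was 1 of 3 within 4-fold, at 72.9 CPM in PB and 154 CPM in BM. Of 20 ribosome biogenesis genes, which serve cell growth, 0 were called in either direction and the median log2 ratio was -0.56.

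Many division genes hold promoter letters known from their regulation, the CHR letters TTTGAA and CCAAT in mitosis genes and the E2F letters TTCCCGC in replication genes. Shown are the mitosis gene with TTTGAA and the replication gene with the E2F letters that had the largest ratio. Cdk1, the kinase that starts mitosis, had 2.85 CPM in PB and 169 CPM in BM (59.3-fold lower, 47.9 to 74.4), and its promoter at chr10:69352863-69353162, minus strand, holds TTTGAA in capitals at 71 and 15 bases before the start. Cdc6, which loads the helicase, had 2.81 CPM in PB and 138 CPM in BM (48.9-fold lower, 39.4 to 61.4), and its promoter at chr11:98907901-98908200, plus strand, holds the E2F letters on the reverse strand, in capitals, 138 bases before the start.
Cdk1: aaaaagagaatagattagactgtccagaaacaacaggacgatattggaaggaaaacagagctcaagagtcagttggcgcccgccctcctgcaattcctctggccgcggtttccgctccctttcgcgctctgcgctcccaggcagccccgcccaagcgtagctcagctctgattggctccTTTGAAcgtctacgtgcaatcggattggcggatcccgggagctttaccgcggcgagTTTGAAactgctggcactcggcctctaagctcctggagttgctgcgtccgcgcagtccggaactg
Cdc6: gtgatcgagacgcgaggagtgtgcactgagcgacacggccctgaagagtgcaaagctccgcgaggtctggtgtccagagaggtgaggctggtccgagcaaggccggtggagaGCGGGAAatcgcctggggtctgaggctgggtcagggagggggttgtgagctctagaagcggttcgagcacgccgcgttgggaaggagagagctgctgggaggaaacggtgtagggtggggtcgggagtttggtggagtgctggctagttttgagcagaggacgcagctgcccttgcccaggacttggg
TTTGAA was in 15 of 20 mitosis promoters (75%), in 12.3% of the promoters of genes at 5 CPM and in 18.2% of all promoters. CCAAT was in 18 of the 20 (90%), in 39.2% of those at 5 CPM and in 38% of all. TTCCCGC was in 9 of 20 DNA replication promoters (45%), in 8.83% of those at 5 CPM and in 4.67% of all. Of promoters of genes called higher and lower, 12.9% and 19.8% held TTTGAA. The shares were 36.0% and 45% for CCAAT and 3.06% and 12.2% for TTCCCGC. Kif23 and Cenpa, which were within 4-fold, hold both TTTGAA and CCAAT.

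Every immediate-early and NF-kB list member at 5 CPM had a PB over BM ratio above 1, as did 43.1% of all genes at that level. Immediate-early genes are switched on within minutes of a stimulus from factors already present, and NF-kB is a transcription factor family held in check by inhibitors that it also induces. Of 28 immediate-early genes, 14 were at least 4-fold higher, 0 were lower, 28 had a ratio above 1 and the median log2 ratio was 2.03. Nr4a1, an orphan nuclear receptor induced by antigen receptor signals, had 1978 CPM in PB and 35.1 CPM in BM (56.3-fold higher, 53.4 to 59.4). Rgs1, a brake on chemokine receptors, had 341 CPM in PB and 5.62 CPM in BM (60.7-fold higher, 53.3 to 69.5). Maff, a small Maf factor, had 103 CPM in PB and 1.64 CPM in BM (62.9-fold higher, 49.4 to 81.3). Other members of the same families followed, Nr4a3 at 29.7-fold, Nr4a2 at 14.7-fold, Egr1 at 14.3-fold, Egr2 at 9.73-fold and Egr3 at 5.42-fold higher, Egr1 with 329 CPM in PB and 23.0 CPM in BM. The stress factor Atf3 was 34.0-fold higher, the phosphatase genes Dusp5 and Dusp2 20.3-fold and 8.43-fold, Csrnp1 8.03-fold, and Btg1, a growth inhibitor of quiescent lymphocytes, 6.03-fold, with 2008 CPM in PB and 333 CPM in BM. The AP-1 genes were nearer to BM: Fos had 789.9 CPM in PB and 420.4 CPM in BM (1.88-fold, 1.84 to 1.92), Jun 339 CPM in PB and 110.3 CPM in BM (3.08-fold, 2.97 to 3.19), Junb was 3.05-fold, Jund 3.18-fold and Fosb 3.20-fold higher. Dusp1, Zfp36, Ier5, Klf2, Klf6, Btg2, Ier3, Klf4 and Ier2 lay between 3.63-fold (Ier5) and 1.47-fold (Ier2) higher. Genes on the opposite strand overlap 52.6% of the exon bases of Jund and 22.1% of those of Dusp5.

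Of 33 NF-kB and inflammatory genes at 5 CPM, 22 were higher by 4-fold or more, 0 were lower, 33 had a ratio above 1 and the median log2 ratio was 2.71. Tnfaip3, which encodes the NF-kB inhibitor A20, had 2035 CPM in PB and 32.2 CPM in BM (63.2-fold higher, 59.9 to 66.8). Nfkbia, which encodes the inhibitor that holds NF-kB in the cytoplasm, had 1648 CPM in PB and 187 CPM in BM (8.81-fold higher, 8.60 to 9.03). Ptgs2, which encodes cyclooxygenase 2, had 379.9 CPM in PB and 7.73 CPM in BM (49.1-fold higher, 43.9 to 55.1). Feedback inhibitors and an effector enzyme were thus higher alike. Ccrl2, a receptor that presents chemerin, was 46.0-fold higher (41.9 to 50.5). Cxcl1, a neutrophil chemokine, had 443 reads in PB and 0 in BM, at least 201-fold higher in PB. Among members named after their values were seen, Tnf had 213 CPM in PB and 20.9 CPM in BM (10.2-fold, 9.48 to 11.0), Cxcl2 1092 CPM in PB and 35.8 CPM in BM (30.5-fold, 28.9 to 32.2), and Il6 5.22 CPM in PB and 0.957 CPM in BM (5.45-fold, 3.82 to 7.96), close to the 5 CPM minimum. The transcription factor subunit itself differed little, Nfkb1 having 257 CPM in PB and 193 CPM in BM, as did Tnfaip2 with 393 CPM in PB and 290.1 CPM in BM and the urokinase receptor gene Plaur with 468 CPM in PB and 255 CPM in BM.

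The other 3 libraries were set beside the pair. PB was the highest of the 5 libraries for 25 of 28 immediate-early genes and 29 of 33 NF-kB genes, while BM was the lowest for 6 and 6. Over all genes at 5 CPM, PB was the highest for 27.8% and BM the lowest for 11.3%. Lists of lymphocyte genes showed the same trait, PB being the highest for 25 of 27 T cell genes, 20 of 20 natural killer and cytotoxic genes and 18 of 22 mature B cell genes. The immediate-early list had a median level of 368 CPM in PB and 54.4 CPM in BM, and of 46.3 CPM in MCC, 49.1 CPM in MEF and 31.9 CPM in iPSC. The NF-kB list had a median level of 215 CPM in PB and 34.4 CPM in BM, and of 19.0 CPM in MCC, 3.88 CPM in MEF and 8.67 CPM in iPSC. By these medians PB stood above the other 4 libraries. Cxcl1 was an exception, with 14.8 CPM in PB, 38.4 CPM in MCC, 11.5 CPM in MEF and 26.2 CPM in iPSC. The sources used here do not say how blood and marrow were handled before Trizol, and the part of handling in these levels was not tested. T cell and mature B cell genes were higher in PB as given above, and activation genes also differ between cell types, so cell makeup and activation cannot be told apart here.

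**Figure D4:**
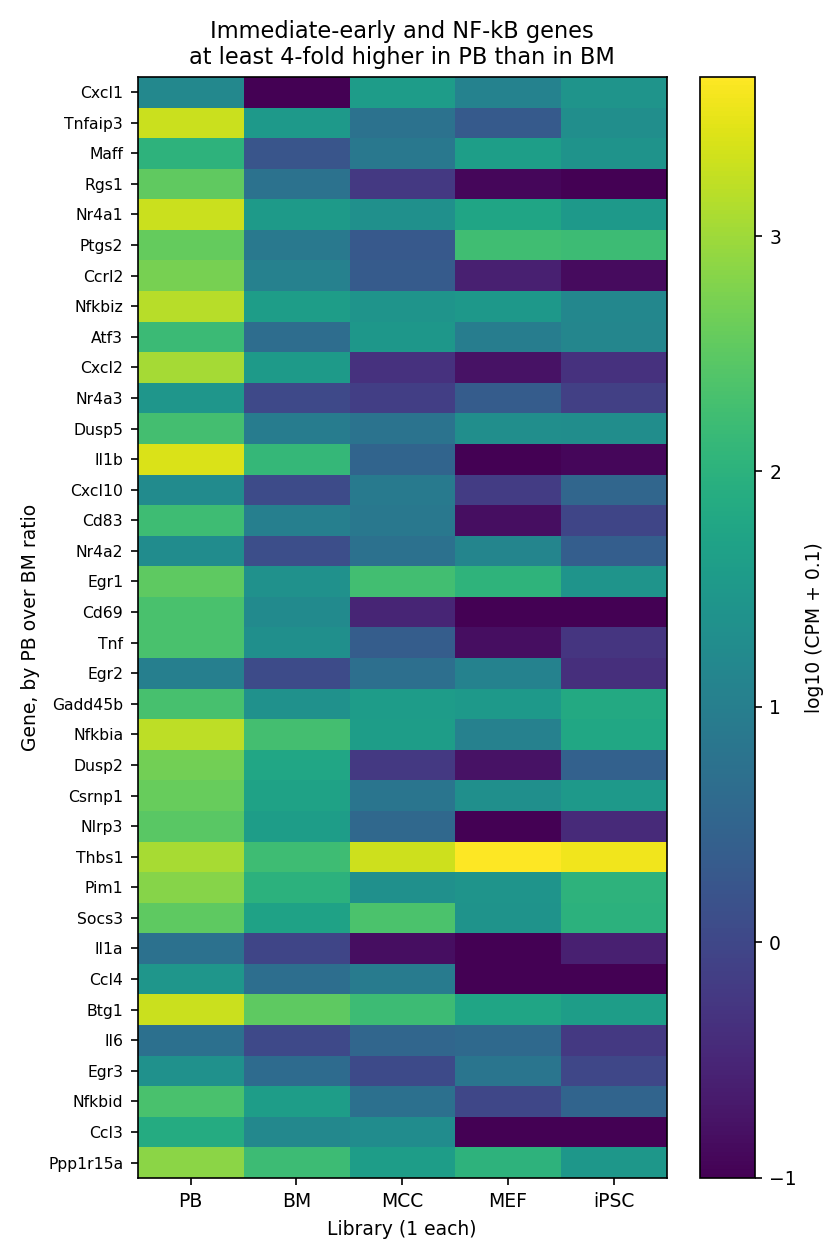
Levels as log10 (CPM + 0.1), from dark (low) to yellow (high), of the immediate-early and NF-kB genes at least 4-fold higher in PB than in BM, ordered by ratio from top to bottom, in the 5 libraries. The PB column is the brightest for nearly all of them; exceptions include Cxcl1, with 14.8 CPM in PB and 38.4 CPM in MCC, and Thbs1, brightest in MEF.

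The heat map of activation genes shows PB brightest for most of them. Sequence elements known to act on these genes are printed for the members that carry them. Cxcl1 has the largest ratio among NF-kB list members with the kappaB letters, GGGA and TTCC with any 2 bases between, and its promoter at chr5:90890995-90891294, plus strand, holds 2 overlapping matches in capitals, on opposite strands, that begin 71 and 70 bases before the start. Ppp1r15a, which encodes GADD34, a phosphatase subunit that restores translation after stress, had 722 CPM in PB and 158 CPM in BM (4.57-fold higher, 4.44 to 4.70), and its promoter at chr7:45526219-45526518, minus strand, holds the cyclic AMP response element letters TGACGTCA in capitals 12 bases before the start.
Cxcl1: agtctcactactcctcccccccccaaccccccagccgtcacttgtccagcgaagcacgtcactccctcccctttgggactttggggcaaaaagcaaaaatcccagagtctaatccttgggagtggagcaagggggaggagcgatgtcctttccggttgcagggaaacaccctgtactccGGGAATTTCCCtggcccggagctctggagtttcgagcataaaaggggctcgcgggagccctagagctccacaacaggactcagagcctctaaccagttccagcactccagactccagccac
Ppp1r15a: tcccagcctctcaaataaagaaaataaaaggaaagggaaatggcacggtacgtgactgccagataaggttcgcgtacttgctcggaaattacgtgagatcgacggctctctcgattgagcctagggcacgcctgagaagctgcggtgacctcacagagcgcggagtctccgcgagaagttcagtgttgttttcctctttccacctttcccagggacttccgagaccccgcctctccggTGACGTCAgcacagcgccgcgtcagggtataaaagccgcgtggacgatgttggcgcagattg
On both strands, the kappaB letters were in 5 of 25 NF-kB list promoters (20%), those of Cxcl1, Cxcl2, Cxcl10, Nfkbia and Il6, in 1.51% of promoters at 5 CPM and in 1.44% of all. TGACGTCA was in 3 of 24 immediate-early promoters (12.5%), those of Ppp1r15a, Dusp1 and Btg2, in 3.35% of those at 5 CPM and in 1.85% of all. 0 of the 24 immediate-early promoters held the kappaB letters. Among called genes, the kappaB letters were in 2.84% of promoters of those higher in PB and in 1.05% of those lower. For TGACGTCA the shares were 2.62% and 2.33%.

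The other element is the AU-rich heptamer TATTTAT of the 3′ UTR, to which the decay factor tristetraprolin, encoded by Zfp36, is known to bind in short-lived mRNAs. Zfp36 itself had 1837 CPM in PB and 565 CPM in BM (3.25-fold higher, 3.20 to 3.30). The 30-base stretch with the most heptamers is printed for the 4 genes with the most copies and for Il1b, in DNA letters from GENCODE M21 on mm10, with the heptamers in capitals. They lie in the 3′ UTRs of Tnf (chr17:35199677-35199706, minus strand), Cxcl2 (chr5:90905325-90905354, plus strand), Cxcl1 (chr5:90892606-90892635, plus strand), Ptgs2 (chr1:150105789-150105818, plus strand) and Il1b (chr2:129364802-129364831, minus strand).
Tnf: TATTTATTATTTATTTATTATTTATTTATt
Cxcl2: ctTATTTATTTATctatgTATTTATTTATt
Cxcl1: gtccTATTTATTTATgTATTTATTTATtcc
Ptgs2: actgaccaTATTTATTTATTTATgtgaaga
Il1b: cttaccTATTTATTTATgTATTTATtgatt
Overlapping copies counted, the whole 3′ UTR held 8 heptamers in Tnf, 7 in Cxcl2, 6 in Cxcl1, 6 in Ptgs2 and 3 in Il1b. The heptamer was in the 3′ UTR of 21 of 33 NF-kB list genes, at 1.65 copies per kilobase, and of 18 of 28 immediate-early genes, at 0.802 per kilobase. Over all 10280 coding genes with a 3′ UTR of 50 bases or more it was in 30.7%, at 0.284 per kilobase. The hypoxia and glycolysis list, with a median log2 ratio of -0.71, held it in 12 of 19 genes, at 0.704 per kilobase. The heptamer and the call did not go together throughout. Nr4a1 and Egr1, called higher, held 0 copies, while Dusp1 and Zfp36, called in neither direction, held 3 each.

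The heat shock and unfolded protein lists had medians near the -0.18 of all genes. The heat shock median log2 ratio was -0.14, which turned to 0.041 with DESeq2 size factors and to 0.23 as a mean. Of 19 heat shock genes at 5 CPM, 2 were higher by 4-fold or more (6.32% over all genes) and 0 were lower (9.68%). The 2 were the inducible Hsp70 genes. Hspa1b had 153 CPM in PB and 6.90 CPM in BM (22.1-fold higher, 19.6 to 25.1), and Hspa1a 45.5 CPM in PB and 3.46 CPM in BM (13.1-fold higher, 11.0 to 15.7). They are near-identical, with 58.8% of the 50-base windows of Hspa1a also in Hspa1b, so the split between them is uncertain. The constitutive relative Hspa8 had 974 CPM in PB and 1382 CPM in BM (1.42-fold lower, 1.40 to 1.44), and Hsp90ab1 821 CPM in PB and 1235 CPM in BM (1.5-fold lower, 1.48 to 1.53). Other inducible members were called in neither direction: Dnajb1, an Hsp70 partner, had 115 CPM in PB and 116 CPM in BM, Hsp90aa1 203 CPM in PB and 246 CPM in BM, Hsph1 26.4 CPM in PB and 32.5 CPM in BM, and Bag3 19.4 CPM in PB and 10.5 CPM in BM. Hspd1, the mitochondrial Hsp60, was 2.35-fold lower and the co-chaperone gene Stip1 2.20-fold. Ahsa1, Cacybp and Hspa4 were also within 4-fold on the lower side and Dnajb4 on the higher side. Hspb1 stayed under 5 CPM. Hspa1b has the largest ratio among list members with the heat shock element letters, and its promoter, at chr17:34959189-34959488 on the minus strand, is shown with those letters, GAANNTTC, in capitals, 104 bases before the start.
Hspa1b: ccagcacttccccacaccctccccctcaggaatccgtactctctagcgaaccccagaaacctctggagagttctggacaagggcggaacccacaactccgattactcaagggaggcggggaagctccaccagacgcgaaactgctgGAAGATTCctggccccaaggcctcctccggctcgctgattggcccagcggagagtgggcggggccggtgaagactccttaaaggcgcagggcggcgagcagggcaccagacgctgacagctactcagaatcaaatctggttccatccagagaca
GAANNTTC was in 7 of 15 heat shock promoters (46.7%), in 5.54% of those at 5 CPM and in 7.96% of all. The 7 were Hspa1a, Hspa1b, Hsph1, Dnaja1, Hspe1, Bag3 and Chordc1, of which Hspa1a and Hspa1b were called. The letters were in 7.86% of promoters of all genes called higher and in 6.63% of those called lower.

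Of 19 genes of the unfolded protein and integrated stress responses, 0 were at least 4-fold higher and 2 were lower. Over all genes, 6.32% were higher and 9.68% lower. The list's median log2 ratio was -0.12, which turned to 0.067 with DESeq2 size factors and to 0.014 over members on no other list. Hspa5, the chaperone BiP, had 599 CPM in PB and 463 CPM in BM, and Atf4, the central transcription factor, 379 CPM in PB and 231 CPM in BM. The 2 lower members, named after their values were seen, were Asns, asparagine synthetase, with 1.74 CPM in PB and 71.1 CPM in BM (40.9-fold, 31.1 to 54.9), and Sdf2l1, a BiP partner, with 7.80 CPM in PB and 44.3 CPM in BM. Of 19 hypoxia and glycolysis genes, 0 were higher and 2 were lower, beside the same shares of all genes, and the median log2 ratio was -0.71. With DESeq2 size factors 1 was higher and 0 were lower. Gapdh had 557 CPM in PB and 1663 CPM in BM (2.99-fold lower, 2.94 to 3.04) and Ldha 249 CPM in PB and 609 CPM in BM.

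Of 15 targets of p53 at 5 CPM, 6 were higher by 4-fold or more, 1 was lower and 14 had a ratio above 1. Over all genes, 6.32% were higher, 9.68% were lower and 43.1% had a ratio above 1. The list's median log2 ratio was 1.20. PB was the highest of the 5 libraries for 5 of the 15 (27.8% over all genes). BM was the lowest for 9 (11.3% over all genes). The median level was 48.4 CPM in PB and 14.3 CPM in BM. It was 84.8 CPM in MCC, 92.3 CPM in MEF and 118 CPM in iPSC. By these medians BM was the lowest, and PB lay below MCC, MEF and iPSC. Pmaip1, which encodes the cell death protein Noxa, had 164 CPM in PB and 4.71 CPM in BM (34.8-fold higher, 30.1 to 40.4), and Sesn1, a sestrin, 265 CPM in PB and 51.1 CPM in BM (5.18-fold higher, 4.94 to 5.44). Cdkn1a, the cell cycle inhibitor p21, was 13.1-fold higher, and was named after its values were seen. Mdm2, the feedback inhibitor of p53, had 107 CPM in PB and 76.6 CPM in BM, and Trp53inp1 300.3 CPM in PB and 131 CPM in BM, both within 4-fold. Rps27l was the member that was lower, with 11.4 CPM in PB and 57.9 CPM in BM (5.06-fold, 4.51 to 5.68).

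Interferon-stimulated and trafficking genes were called in neither direction in 30 of 33 and 18 of 22 members, beside 84.0% of all genes. Of 33 interferon-stimulated genes, 2 were at least 4-fold higher (6.32% over all genes) and 1 was lower (9.68%). A ratio above 1 was found for 29 of them, and for 43.1% of all genes. The list's median log2 ratio was 1.02. Families taken by symbol, named after their values were seen, had more calls. Of 15 Ifi genes, a family that includes Ifi203 of this list, 7 were at least 4-fold higher (median log2 ratio 1.98). Of 10 Gbp genes, 6 were (median 3.11). Ifi203, a member of the nucleic acid sensing family, had 273 CPM in PB and 45.3 CPM in BM (6.02-fold higher, 5.72 to 6.33), and Irf7, the regulator that amplifies the response, 181 CPM in PB and 108 CPM in BM (1.67-fold higher, 1.61 to 1.74). Of 22 trafficking genes, 4 were at least 4-fold higher, 0 lower and the median log2 ratio was 0.99. Ccr7, which guides lymphocytes to lymph nodes, had 369 CPM in PB and 17.2 CPM in BM (21.5-fold higher, 19.9 to 23.2). Cxcr4, the receptor for Cxcl12, had 1368 CPM in PB and 380.1 CPM in BM (3.60-fold higher, 3.53 to 3.67). The integrin gene Itgb2 had 795 CPM in PB and 1102 CPM in BM. The 4 called members were Ccr7, the egress receptors S1pr1 and S1pr5 and the integrin gene Itgae, which T cells of epithelia use; these last 3 were named after their values were seen.

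Other members with high levels are set out by list, with their fold in PB relative to BM. Among myeloid genes, Retnlg, a resistin-like gene of neutrophils, was 3.14-fold lower and Fn1, which encodes fibronectin, 1.67-fold lower. Among macrophage and stroma genes, Slc40a1, the iron exporter ferroportin, was 1.75-fold lower, Trf, which encodes transferrin, 1.97-fold lower and the collagen gene Col1a2 26.5-fold lower. Among red cell and platelet genes, Urod, of haem synthesis, was 6.67-fold lower, Aqp1, a water channel, 227-fold lower, the carbonic anhydrase gene Car2 26.1-fold lower, Gpx1, a peroxidase, 3.15-fold lower and the tetraspanin gene Cd9 1.18-fold lower. Among lymphocyte genes, the transcription factor gene Spib was 1.43-fold lower, the chemokine gene Ccl5 6.28-fold higher, Gimap3 14.4-fold higher, Gimap4 11.2-fold higher and the class II gene H2-Ab1 4.16-fold higher. Of plasma cell genes, the transcription factor gene Xbp1 was 1.67-fold lower and Irf4 1.03-fold higher, and Edem2 1.70-fold lower. The chaperone gene Hsp90b1 was 1.27-fold lower, Edem1 1.01-fold higher, the enolase gene Eno1 2.14-fold lower and the helicase gene Mcm6 6.51-fold lower. The interferon-stimulated gene Ly6e was 1.20-fold higher, Trim30a 2.71-fold higher and Oas3 1.11-fold higher, and of adhesion genes Itgal was 2.63-fold higher and Selplg 1.42-fold higher. Arhgdib, of the leukocyte list, was 2.96-fold lower, and the nucleolar genes Ncl, Npm1, Ddx21 and Fbl were 1.09-fold lower, 1.07-fold higher, 1.24-fold higher and 1.72-fold lower.

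Some of the genes furthest apart belong to no list. Xist, the RNA that silences an X chromosome in female cells, had 8805 reads in PB and 1 in BM (12008-fold higher, 2155 to 474327). Ddx3y, a gene of the Y chromosome named after its values were seen, had 124 CPM in PB and 26.6 CPM in BM. PB thus held transcripts of both kinds, and BM those of a Y chromosome with 1 read of Xist, so sex and tissue cannot be told apart for genes that differ by sex. Wnt11, a secreted signal, had 28.6 CPM in PB and 0.172 CPM in BM (166-fold higher, 80.4 to 415), Ren1, which encodes renin, 22.4 CPM in PB and 0.147 CPM in BM (152-fold higher, 69.5 to 416), and Gbp11, of the interferon-induced guanylate binding family, 356 reads in PB and 1 in BM (485-fold higher, 86.6 to 19229). Among lower genes were Cldn13, a claudin with 4 reads in PB and 5834 in BM (1069.5-fold, 417 to 3927), Abcg4, a lipid transporter (784-fold, 268 to 3803), and Ces2g, a carboxylesterase (510.3-fold, 259 to 1183).

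The genes past the threshold also differed in features that the rule did not use. Among annotated genes at least 4-fold higher in PB, 155 of 710 (21.8%) were not of the protein-coding class, among those at least 4-fold lower 65 of 1078 (6.03%), and over all genes at 5 CPM 833 of 11223 (7.42%). These include antigen receptor segments, which are annotated apart but encode protein. The higher genes held 15 variable and 4 constant T cell receptor segments and 1 immunoglobulin constant segment. The lower genes held 15 variable and 3 constant immunoglobulin segments. The median 3′ UTR of coding genes was 1388 bases for the higher genes and 936 for the lower ones, against 1203 over all. The heptamer TATTTAT was in 39.4% of the higher genes' 3′ UTRs and 23.3% of the lower ones', with at least 3 copies in 8.79% and 1.89%. Longer 3′ UTRs hold more heptamers, so they were also counted within length bands. From 500 to 1000 bases, 24 of 85 higher genes (28.2%) and 47 of 227 lower genes (20.7%) held it, against 19.4% of the genes called in neither direction. From 2000 to 4000 bases it was 57.4% and 45.8%, against 49.6%, and above 4000 bases 68.1% and 64.9%, against 68.6%. In each of the 5 bands the share was larger among the genes higher in PB than among the lower ones. These are shares of genes in 1 pair of libraries, with no test.

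**Figure D5:**
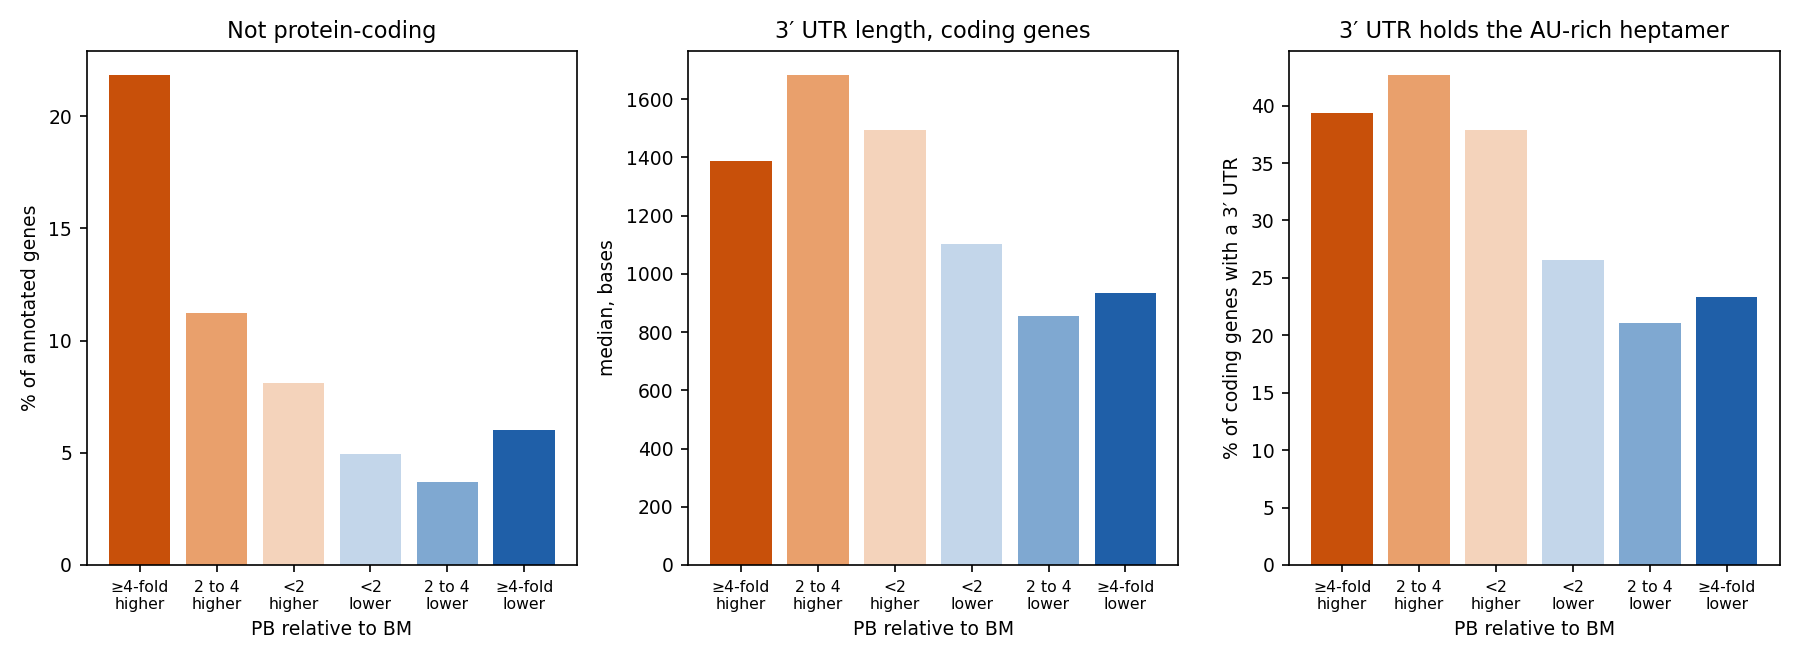
Bars give, for 6 classes of PB over BM ratio from at least 4-fold higher (left) to at least 4-fold lower (right), the percent of annotated genes that are not protein-coding, the median 3′ UTR length of coding genes in bases, and the percent of 3′ UTRs that hold the AU-rich heptamer TATTTAT. The share outside the protein-coding class, antigen receptor segments included, is 21.8% in the highest class and 6.03% in the lowest. 3′ UTRs are longer in the classes higher in PB.

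The bar plot of gene features shows the share outside the protein-coding class highest among genes at least 4-fold higher in PB. The 3′ UTR length and the heptamer share peak in the class between 2-fold and 4-fold higher, at 1683 bases and 42.6%.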

How the data were processed

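Read counts per gene were deposited by the authors as 1 table with a column for each of 5 libraries. They come from featureCounts after STAR, on mm10, per the submitters' processing notes. The sources used here do not state versions, the gene annotation or the strand setting, and name no molecular identifiers, so counting intervals cover counting error only. Counts were divided by library sizes from TMM over the 5 libraries (edgeR 4.0.16, R 4.3.3) to give CPM. Ratios of single genes carry exact conditional binomial 95% intervals, shares binomial ones. Precursor to mature ratios carry approximate 95% intervals, from a normal approximation on the log scale to their summed counts. A fold against 0 reads is a bound computed with 3 counts for that library, 0.100 CPM in PB and 0.0736 CPM in BM. Totals were 30078366 counts in PB and 40774101 in BM, and 0 columns of per-sample values were left unused. Python 3.11.15, numpy 2.4.6, pandas 2.3.3, scipy 1.17.1 and matplotlib 3.10.9 were used, and the steps were tested on simulated data.

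The 31 gene lists, their members and the motifs were chosen with earlier results of these data known. Named were the 15 genes in each direction whose counting bound lay furthest from 1, the 3 members of each list that were highest in each library, the members of the stem and progenitor, primary granule, early B precursor, immediate-early and heat shock lists, globins and immunoglobulin constant regions; other names were chosen after their values were seen. Gene models came from GENCODE M21 on mm10, in which 33782 genes of the table matched once, and promoters from RefSeq on GRCm38.p6. Alternatives were DESeq2 1.42.0 size factors, total counts, TMM over PB and BM alone, abundant genes left out, no CPM minimum, a minimum of 20 CPM, a counting bound of 4-fold, counts under 10 set to 10, means for medians, list members that are on 1 list, and for the precursor to mature ratios the difference of list medians and the most abundant members left out. Some members that this rule takes in are counted in their lists but not reported here by name.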

Additional observations from a re-analysis of the deposited data

How the results depend on the processing

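With no CPM minimum 2169 genes were at least 4-fold higher in PB and 2083 lower, and with a minimum of 20 CPM 421 were higher and 700 lower, against 719 and 1101. Under total counts, TMM over PB and BM alone, abundant genes left out, a counting bound of 4-fold and counts under 10 set to 10, the counts ran from 610 to 724 higher and from 948 to 1102 lower; with DESeq2 size factors they were 885 and 981. The log2 precursor to mature ratio was -6.75 by the difference of list medians against -1.86 for primary granule genes, -3.66 against -1.79 for secondary and tertiary granule genes, and -3.70 against -2.45 for B cells, where leaving out the most abundant member of each list gave -1.48. List medians changed sign for heat shock genes (0.041 with DESeq2 size factors, 0.23 as a mean, against -0.14), for unfolded protein and integrated stress genes (0.067 with DESeq2 size factors, 0.014 over members on no other list, against -0.12) and for pan-leukocyte genes (0.13 as a mean, against -0.23). The cause was not tested. With a minimum of 20 CPM the higher genes came to 0 in the stem and progenitor list, 1 in the mast cell list and 1 in the interferon list, the lower ones to 1 in the dendritic cell list and 5 in the stroma list, and with no minimum the lower stroma genes to 23. Over members on no other list, 0 early B precursor and 2 trafficking genes were higher. With abundant genes left out, which removes S100a8, S100a9 and the globins, 1 mature neutrophil gene was lower and 0 globins were counted. With DESeq2 size factors 1 unfolded protein and 1 hypoxia gene were higher, and 0 hypoxia and 0 interferon genes lower. No paired analysis was possible because each group has 1 library and no result comes from a test. Each ratio compares 2 libraries, with no spread between animals, and reads of overlapping genes on opposite strands or of near-identical copies may be misassigned.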

Other observations

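Gene families defined by symbol, 187 with at least 8 members at 5 CPM, show groups outside the lists, named after their values were seen. A 4-fold difference was reached by 6.32% of all genes on the higher side and by 9.68% on the lower side. All 15 Trbv genes, the variable segments of the T cell receptor beta chain, were at least 4-fold higher in PB (median log2 ratio 4.34). Of 10 Gbp genes, interferon-induced guanylate binding proteins, 6 were at least 4-fold higher (median 3.11), and of 9 Klra genes, which encode the Ly49 receptors of natural killer cells, 7 were (median 2.88). Of 13 Dusp phosphatase genes, 5 were at least 4-fold higher (median 1.73). At the other end, 6 of 11 collagen genes (median -2.58) and 11 of 25 kinesin genes (median -1.16) were at least 4-fold lower. Mitochondrial ribosomal Mrpl genes had no excess of calls, 3 of 48 being lower against 9.68% of all genes. Their median was -1.11, against -0.18 over all genes, while 85 cytosolic ribosomal protein genes had a median of 0.05.

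Among noncoding and variable segment classes, 34 of 72 TEC transcripts (models that await experimental support), 31 of 82 antisense transcripts and 27 of 112 lincRNAs were at least 4-fold higher in PB, against 6.32% of all genes. Immunoglobulin variable segments differed from those of the T cell receptor. Of 94, 15 were at least 4-fold lower, against 9.68% of all genes, 0 were higher and 79 were called in neither direction. Malat1, a nuclear RNA, had 975 CPM in PB and 351 CPM in BM, and Neat1, the RNA of paraspeckles, 356 CPM in PB and 163 CPM in BM. Without a stated strand setting, reads of antisense transcripts and of their partner genes cannot be told apart.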
